A study of Mus musculus with 2 samples.

Results

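The transcripts described here encode the receptors for the fast and modulatory transmitters of the retina. They were taken by gene name: AMPA (Gria), kainate (Grik), NMDA (Grin), delta (Grid) and metabotropic (Grm, without Grm6) glutamate receptors, GABA-A and GABA-rho subunits (Gabr), glycine receptor subunits (Glra and Glrb) and serotonin receptors (Htr). The rule gave 63 of the 32227 genes, in 12 families. Single-nucleus RNA-seq was performed on whole retinas of C57 BL/6J mice at P21, with 1 library for each genotype. Cre- controls, labelled WT, came from age-matched Cre- breeders, and Tet tcKO animals carried floxed alleles of Tet1, Tet2 and Tet3 together with the Chx10-Cre-GFP transgene, which is active in retinal progenitor cells. The transgene is mosaic, and Tet tcKO animals were bred by in-crosses of Cre+ parents. Retinas of several animals were pooled, nuclei of 2 dissociations were combined for each genotype, and the tables do not assign nuclei to a dissociation. The TET enzymes encoded by the deleted genes oxidise methylated cytosine, mostly at CpG dinucleotides.

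In the retina, photoreceptors release glutamate onto bipolar and horizontal cells, and bipolar cells excite amacrine and retinal ganglion cells (RGCs). Amacrine cells release GABA or glycine onto bipolar cells, RGCs and other amacrine cells. Ionotropic receptors are ion channels built from several subunits, so which subunit genes a cell transcribes sets the kinetics and permeability of its channels. Metabotropic glutamate receptors and all serotonin receptors other than Htr3a and Htr3b couple to G proteins. GABA-rho subunits form the slow GABA channels known from bipolar cell terminals, and delta receptors bind cerebellins and glycine or D-serine rather than glutamate.

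The Cre- library held 7357 nuclei and the Tet tcKO library 6766 nuclei, with medians of 1107 and 1836.5 UMIs (unique molecular identifiers, each 1 captured transcript) per nucleus, and 1 barcode occurred in both. Levels are CPM, the UMIs of a gene per 1000000 UMIs summed over the nuclei of a class. Ratios are log2 of Tet tcKO over Cre-. Intervals in brackets are exact at 95% and cover counting error only, since 1 library per genotype leaves no replicate error and no test. Receptor transcripts made up 7486.5 CPM of the Cre- library against 10780.3 CPM of the Tet tcKO library. The annotated classes were unequal in the libraries. Rods were 70.9% of Cre- nuclei and 0.0887% of Tet tcKO nuclei, cones 3.60% and 47.7%, bipolar cells 9.16% and 24.4%, amacrine cells 5.48% and 15.4%, and RGCs 7.71% and 10.4%. Over all nuclei, a different mix of cells and a different amount of transcript per cell cannot be told apart, and so the comparison was repeated within classes and clusters. Markers of amacrine cells, RGCs, horizontal cells and Müller glia summed highest in their own annotated class in both libraries. All 10 were detected in each but the horizontal class, where 7 were. Detection alone does not separate classes, since all 10 amacrine markers were also detected in Cre- rods. Among the 10 leading genes of each cluster, no cluster of these classes had more markers of another class than its own. Some passed with no marker of any class, namely all 3 Müller clusters and amacrine clusters 23 and 27. Of clusters annotated as bipolar cells 5 of 9 passed this check, and of rods 9 of 15. Bipolar clusters 22, 35, 39 and 41 failed, and held 214, 409, 409 and 188 of the 1649 Tet tcKO bipolar nuclei. Annotated bipolar nuclei of Tet tcKO had 6152 CPM of the 10 cone markers and 2640 CPM of the 10 bipolar markers. In Cre- these were 1679 and 5139 CPM. Bipolar nuclei are therefore described by cluster, and rods and cones were pooled for comparison. Of 265 Cre- nuclei annotated as cones, 264 lay in cluster 11. The annotated cones of Cre- had 12398 CPM of the 10 rod markers and 1916 CPM of the 10 cone markers, against 5753 and 6297 CPM in Tet tcKO cones.

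Receptor genes differed in level between the annotated classes. Grin2a, the GluN2A subunit of NMDA receptors, was highest in RGCs and amacrine cells. Its Cre- level was 517.8 CPM [478 to 560] in RGCs, 336.6 CPM [290 to 388] in amacrine cells and 96.0 CPM [88.6 to 104] in rods. In Tet tcKO the first places were close, at 429.0 CPM [402 to 458] in RGCs and 444.4 CPM [418 to 472] in amacrine cells, whose intervals overlapped. Gabrg3, the gamma3 subunit of GABA-A receptors, had its highest class level in RGCs of both libraries, at 625.1 and 633.4 CPM. By cluster, its highest Cre- level was in amacrine cluster 23, at 1629 CPM [1213 to 2142] (51 UMIs). RGC cluster 2 came next in Cre- with 837.3 CPM [758 to 923], and was highest in Tet tcKO with 691.5 CPM.

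Amacrine nuclei carried Grm3, an mGluR that lowers cyclic AMP, at 66.2 CPM [46.6 to 91.3] for Cre- against 67.0 CPM [57.0 to 78.4] for Tet tcKO. No other class passed 25 CPM of Grm3 in either library. Among clusters it was highest in cluster 13 of both libraries, whose leading genes included Chat and Slc5a7, the cholinergic genes of starburst amacrine cells. There Grm3 was at 163.5 CPM (Cre-, 19 UMIs) and 189.9 CPM (Tet tcKO, 49 UMIs). Cluster 13 also had the highest level of Gabra4 (51.6 and 112.4 CPM), Gabrb1 (395.8 and 1115.9 CPM) and Grm8 (1196 and 2941 CPM) of all clusters in both libraries. Its interval overlapped that of the next cluster for Gabra4 in both libraries (6 and 29 UMIs). It also did so in Cre- for Grm3 and for Gabrb1 (46 UMIs), so these first places are not settled.

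Gria4, a fast AMPA subunit, was at 1409 CPM in Cre- horizontal nuclei and 1405 CPM in Cre- amacrine nuclei, whose intervals overlapped, and in Tet tcKO it was at 1567 CPM [1343 to 1818] and 2395 CPM [2333 to 2458]. Grik1, the kainate subunit used by many OFF bipolar cells, reached 2299 CPM [2106 to 2505] in Tet tcKO cluster 42, an annotated bipolar cluster with Vsx1 among its leading genes. The median over Tet tcKO clusters was 501.0 CPM, and cluster 43, also annotated bipolar, came next with 1415 CPM. The same cluster 42 had the highest Tet tcKO levels of Grm5 (1670 CPM), Grid1 (756.0 CPM), Gabrr1 (57.1 CPM), Gabrr2 (364.8 CPM), Gabrr3 (48.4 CPM) and Glra1 (268.1 CPM). Its interval overlapped that of cluster 43 for Gabrr1 (13 UMIs), Gabrr3 (11 UMIs) and Glra1 (61 UMIs). The first places of these genes are not settled. In Cre-, bipolar clusters 4 and 7 had the 2 highest levels of Grik1 (750.1 and 765.1 CPM), Gabrr1 (60.9 and 66.2 CPM) and Glra1 (209.5 and 208.4 CPM). The medians over Cre- clusters were 471.0 CPM for Grik1, 27.8 CPM for Gabrr1 and 93.5 CPM for Glra1. Annotated Cre- rods had 520.0 CPM of Grik1, so its excess in these bipolar clusters, which had Trpm1 among their leading genes, was small. No comparison between the libraries was made for these bipolar clusters, since each lay mostly in 1 library.

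**Figure D1:**
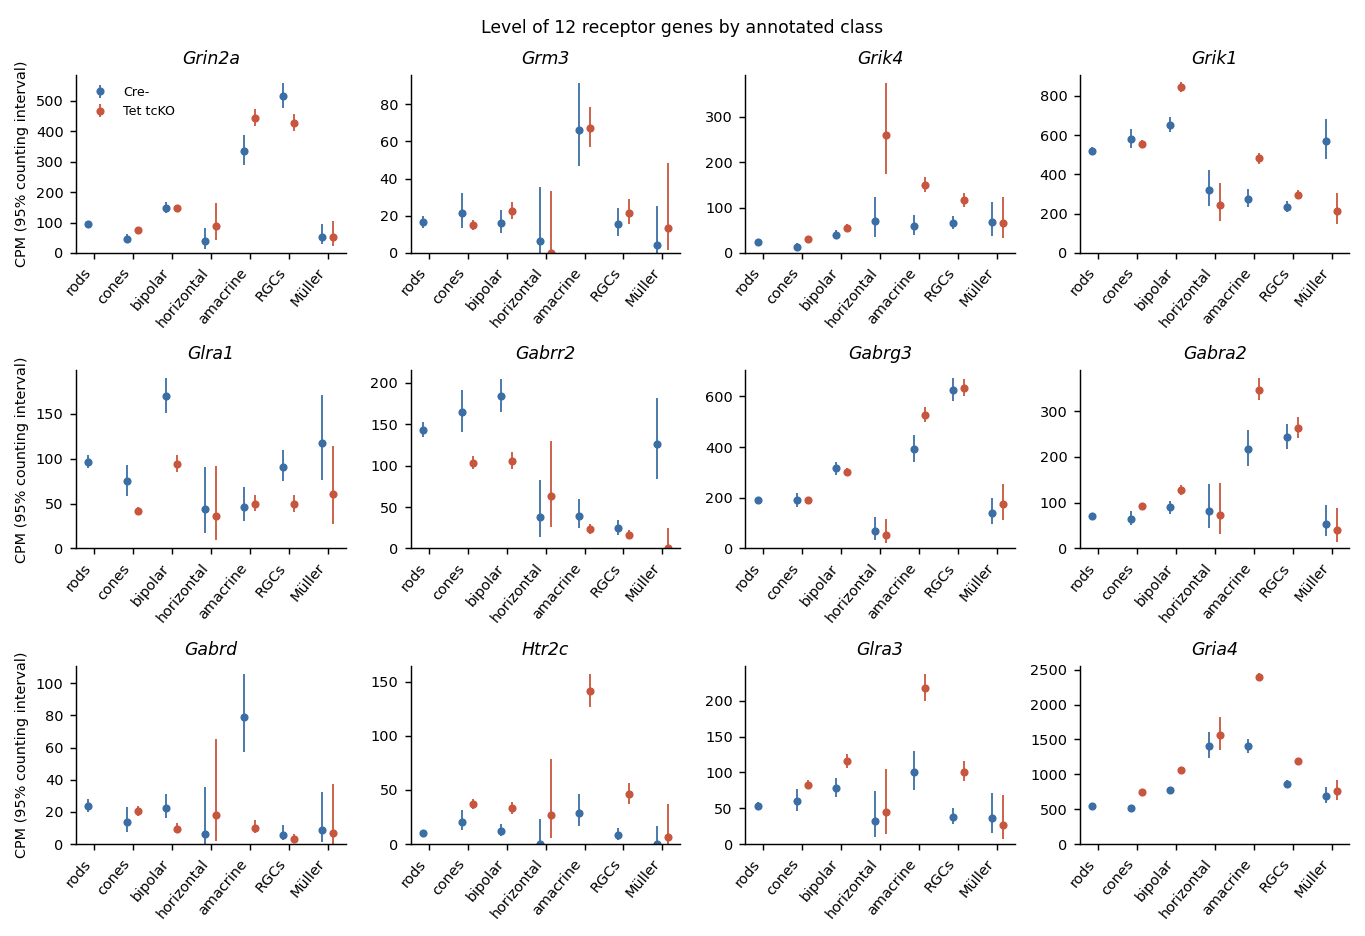
Level of 12 receptor genes by annotated class. The vertical axes give CPM from 0, points are the 2 libraries (blue Cre-, red Tet tcKO), and bars are 95% counting intervals; Tet tcKO rods (6 nuclei) are left out, and bipolar points are a description only. Grin2a was highest in RGCs and amacrine cells, Grm3 in amacrine cells and Gabrg3 in RGCs of both libraries.

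Over all nuclei, 44 of the 63 receptor genes reached 10 CPM in at least 1 library, and these differed by a median log2 ratio of 0.60, where the median of all 11158 genes at that level was 0.15. The ratio was above 0 for 36 and below 0 for 8 of them, where 64.1% of all genes were above 0. At least 2-fold higher in Tet tcKO were 7 receptor genes, where 3.18% of all genes were, and 2 were at least 2-fold lower, where 2.48% of all genes were. The median of the receptor genes was 0.37 when Tet tcKO levels were weighted by the Cre- class shares. That weighting took the bipolar class as annotated, including the clusters that failed the marker check. Counting each gene once per nucleus, which limits genes with several UMIs in a nucleus, it was 0.28, and 0.16 for all genes.

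Htr2c, the 5-HT2C serotonin receptor, had the largest ratio over all nuclei among the receptor genes at 10 CPM. Its level was 11.8 CPM for Cre- against 51.3 CPM for Tet tcKO (log2 ratio 2.12 [1.86 to 2.39]). Next came Gabrg1, a gamma subunit of GABA-A receptors, with 10.2 and 26.6 CPM (log2 ratio 1.37 [1.08 to 1.68]), and Glra2, the glycine receptor alpha2 subunit, with 15.6 and 34.3 CPM (1.13 [0.89 to 1.38]). Gabra5 and Grik4 lay just past 2-fold, with log2 ratios of 1.06 and 1.03. Gabra3 and Glra3 lay just short of it, at 0.97 each. Grin2c, an NMDA subunit, was lower in Tet tcKO, with 15.4 against 7.29 CPM (log2 ratio -1.08 [-1.42 to -0.73]), and so was Gabrr1, the rho1 subunit, with 33.2 and 16.2 CPM (-1.04 [-1.27 to -0.81]).

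By family, the GABA-A alpha subunits Gabra2, Gabra3 and Gabra5 and the beta subunits Gabrb1 and Gabrb2 had ratios above 0 under every setting. AMPA subunits (4 of 4) were also above 0, as were Grid1, Grm4 and Grm8, but under at least 1 other setting Gria2, Gria4, Grid1, Grm4 or Grm8 turned. The mGluR genes Grm3, Grm5 and Grm7 were at 0.41, 0.65 and 0.87 and stayed above 0 under every setting. The 3 rho subunits were all below 0 under every setting, at -1.04 for Gabrr1, -0.72 for Gabrr2 and -0.17 [-0.42 to 0.09] for Gabrr3. Kainate subunits were mixed. Grik4 was at 1.03 and Grik2 at 0.59, whereas Grik3 and Grik5 were both at -0.08. Among AMPA subunits Gria2 stood apart at 0.04, and turned to -0.06 with TMM scaling, while Gria1, Gria3 and Gria4 were at 0.61, 0.76 and 0.75. Grin1, the obligatory NMDA subunit, had 138.7 CPM for Cre- against 139.5 CPM for Tet tcKO (log2 ratio 0.01 [-0.09 to 0.10]), and -0.10 with TMM scaling. The remaining 19 receptor genes were under 10 CPM in both libraries. They were the serotonin receptors Htr1a, Htr1b, Htr1d, Htr2a, Htr2b, Htr3a, Htr3b, Htr4, Htr5a, Htr5b, Htr6 and Htr7, the GABA-A subunits Gabra6, Gabre, Gabrp and Gabrq, and Glra4, Grin3b and Grm2. Htr3a and Htr3b, the subunits of the serotonin-gated channel, were at 1.30 and 0.608 CPM for Cre- against 1.39 and 0.422 CPM for Tet tcKO. Htr1b, a receptor that inhibits release at many terminals, was at 1.82 CPM (Cre-, 21 UMIs) and 6.45 CPM (Tet tcKO, 107 UMIs).

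**Figure D2:**
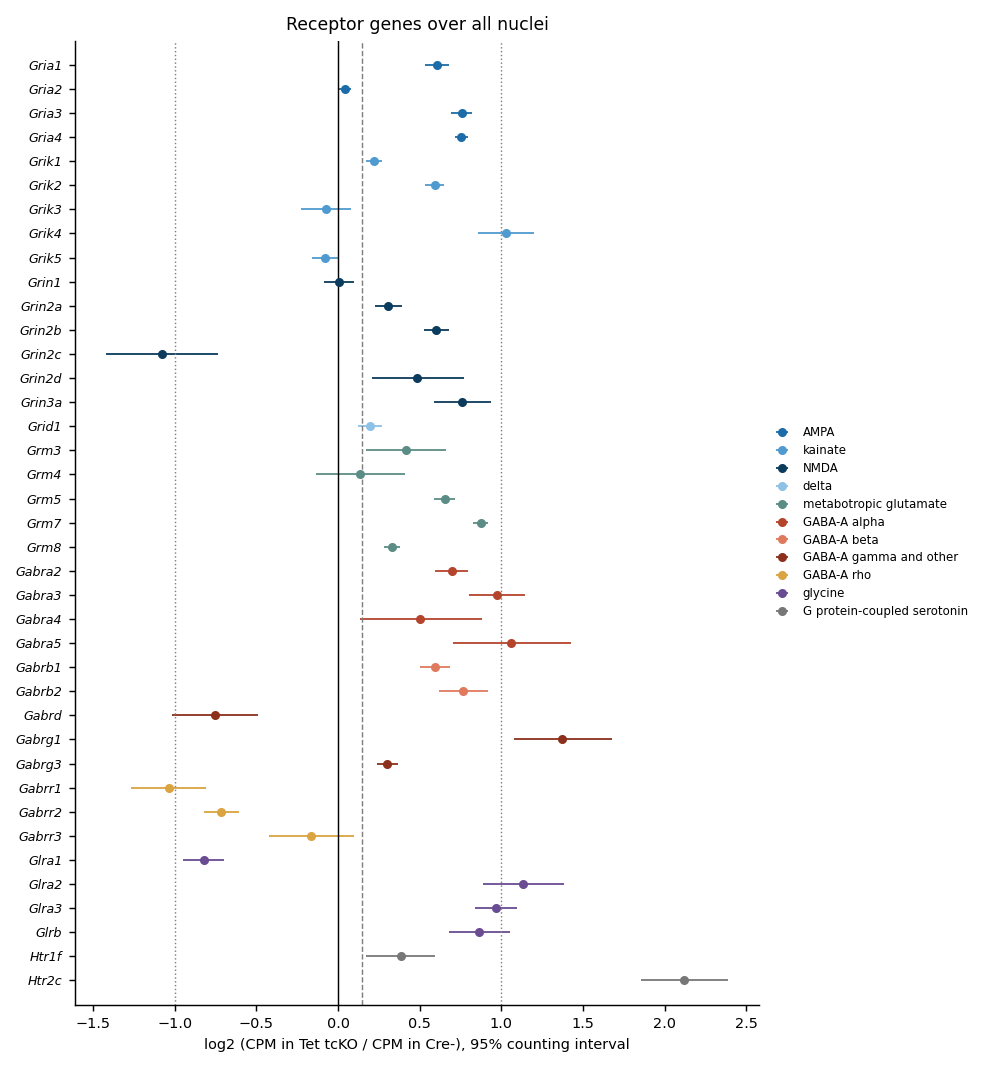
Log2 ratio of Tet tcKO over Cre- over all nuclei for 39 of the 44 receptor genes at 10 CPM or more. The horizontal axis is log2, points are coloured by family, bars are 95% counting intervals, dotted lines mark 2-fold and the dashed line the median of all genes, 0.15. Htr2c lay farthest to the right, and the rho subunits, Gabrd, Glra1 and Grin2c lay to the left of 0.

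Because the deleted enzymes act on CpG cytosines, the promoter windows of the 2 largest ratios and of both genes that were 2-fold lower are shown. They are RefSeq windows of GRCm38.p6, from 250 bases before to 50 bases after the start, at chrX:146962263-146962562 (+ strand) for Htr2c, chr5:70842568-70842867 (- strand) for Gabrg1, chr4:33132306-33132605 (+ strand) for Gabrr1 and chr11:115267194-115267493 (- strand) for Grin2c. Capitals mark each CpG.
Htr2c: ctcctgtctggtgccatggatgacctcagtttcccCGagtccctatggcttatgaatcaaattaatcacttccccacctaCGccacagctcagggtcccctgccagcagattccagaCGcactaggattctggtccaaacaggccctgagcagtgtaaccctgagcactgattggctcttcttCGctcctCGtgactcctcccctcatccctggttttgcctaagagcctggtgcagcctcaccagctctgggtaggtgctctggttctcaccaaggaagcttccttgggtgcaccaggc
Gabrg1: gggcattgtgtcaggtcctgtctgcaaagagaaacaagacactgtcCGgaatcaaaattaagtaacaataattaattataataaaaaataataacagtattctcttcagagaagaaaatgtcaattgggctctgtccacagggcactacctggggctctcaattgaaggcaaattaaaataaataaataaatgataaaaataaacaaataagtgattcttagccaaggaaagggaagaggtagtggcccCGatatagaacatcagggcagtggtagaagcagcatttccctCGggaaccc
Gabrr1: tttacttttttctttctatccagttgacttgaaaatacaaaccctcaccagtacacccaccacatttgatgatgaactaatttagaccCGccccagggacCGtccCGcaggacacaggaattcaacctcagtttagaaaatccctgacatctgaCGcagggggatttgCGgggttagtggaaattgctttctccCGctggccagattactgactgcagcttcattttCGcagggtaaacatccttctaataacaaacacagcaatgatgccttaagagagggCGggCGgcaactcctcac
Grin2c: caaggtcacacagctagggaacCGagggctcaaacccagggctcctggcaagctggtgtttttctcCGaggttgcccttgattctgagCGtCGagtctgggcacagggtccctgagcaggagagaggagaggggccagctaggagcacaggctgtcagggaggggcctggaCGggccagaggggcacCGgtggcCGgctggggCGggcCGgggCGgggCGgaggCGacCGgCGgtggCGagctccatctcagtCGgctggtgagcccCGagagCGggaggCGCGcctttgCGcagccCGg
The windows hold 5 CpGs for Htr2c, 3 for Gabrg1, 9 for Gabrr1 and 22 for Grin2c, and all 32851 windows had a median of 7. Over the 53 windows of the 44 receptor genes with an entry, CpG counts ran from 0 to 50 with a median of 11. The letters TAATCC, on either strand, occurred in 2 of these 53 windows (3.77%) and in 7.06% of all windows, and in none of the 4 printed.

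Receptor genes are long, with a median of 206 kb (GRCm39, GENCODE vM39) among the 44 at 10 CPM, where all genes at that level had a median of 34.8 kb. Of the 31 receptor genes over 100 kb, 30 had a ratio above 0, with a median of 0.75, and all 2340 genes over 100 kb had a median of 0.17, with 67.9% above 0. The 13 receptor genes of 100 kb or less had a median of -0.08, with 6 above and 7 below 0, where all genes of that length had 0.14. The 8 genes below 0 ran from Gabrd (13.5 kb), Grin2c (18.5 kb), Gabrr2 (33.2 kb) and Gabrr1 (37.7 kb) over Gabrr3 (57.2 kb), Grik5 (63.4 kb) and Glra1 (94.4 kb) to Grik3 (224 kb). Nuclear RNA holds much unspliced transcript, and counts were not divided by length.

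**Figure D3:**
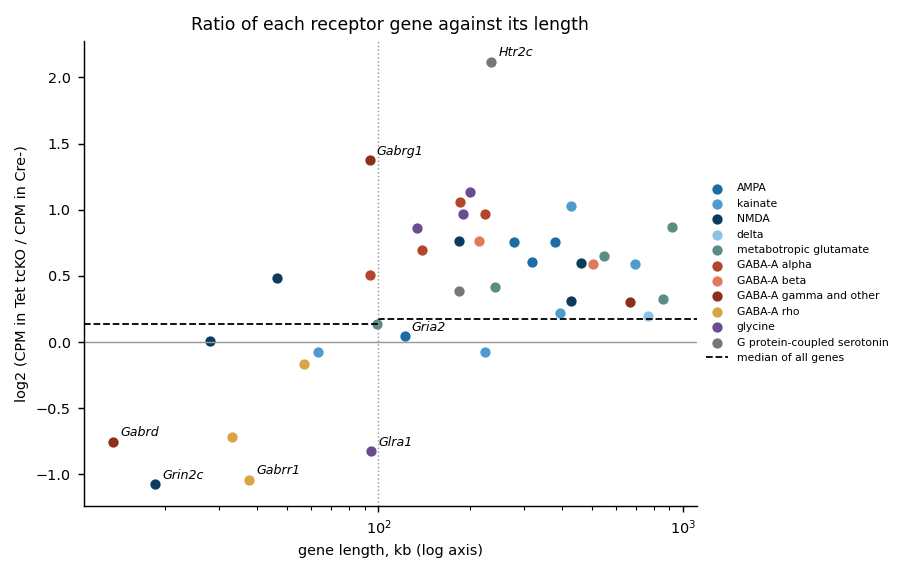
Log2 ratio over all nuclei against gene length for 39 of the 44 receptor genes at 10 CPM or more. The horizontal axis is length in kb on a log scale, the vertical axis the log2 ratio, and dashed lines give the median of all genes on each side of 100 kb (0.14 and 0.17). Plotted receptor genes over 100 kb lay above 0 in 26 of 27 cases.

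Several GABA-A genes lie side by side, and their ratios were compared by locus (GRCm39). On chromosome 5 (70906506 to 72319431), Gabrg1, Gabra2, Gabra4 and Gabrb1 were at 1.37, 0.69, 0.50 and 0.59. Gabrg3 and Gabra5, which lie close together on chromosome 7, were at 0.30 and 1.06. Gabrr2 and Gabrr1, neighbours on chromosome 4 (33062937 to 33163588), were both lower. Of the 44 receptor genes at 10 CPM, 17 overlap another annotated gene on the opposite strand, among them Gabra4 and Gabrb1 (with each other), Gabra5, Gabrg3, Gabrr3, Glra1, Glrb, Grin1, Grin2b, Grin2d, Grik1, Grik5 and Grm7. Grin3a and Grik2 overlap a gene on their own strand. The methods do not say how strand was used in counting, and the counts of all these genes are less certain.

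The balance of subunits within a family differed between the libraries as well. Gria2 encodes GluA2, the subunit that makes AMPA receptors nearly impermeable to calcium. Of all AMPA UMIs over all nuclei, Gria2 held 46.4% [45.7 to 47.0] for Cre- against 34.95% [34.5 to 35.4] for Tet tcKO. Gria2 held a smaller share in Tet tcKO within every class compared, with 42.6% and 30.7% in amacrine nuclei, 47.5% and 40.1% in RGCs, 47.0% and 36.8% in pooled rods and cones, 34.4% and 26.96% in horizontal nuclei, and 42.1% and 21.4% in Müller glia. Intervals overlapped only in horizontal nuclei. Most Müller nuclei lay in different clusters, 99 of 144 in cluster 14 for Cre- and 56 of 102 in cluster 37 for Tet tcKO. Rod markers summed to 5572 CPM in Cre- Müller glia and 1930 CPM in those of Tet tcKO. The part of these differences, or of transcripts from other cells, in the AMPA shares was not tested. Gria4 held 32.5% of AMPA UMIs over all Cre- nuclei, below Gria2, and 40.1% over all Tet tcKO nuclei, above it. These are shares of nuclear UMIs, which also reflect gene length, and they are compared between libraries only. That comparison does not remove length, since ratios of receptor genes differed with it. Gria2 (122 kb) is the shortest AMPA gene, where the others have 278 to 379 kb. The part of length in these shares was not tested.

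The alpha subunits of glycine receptors also had other shares. Glra1, the alpha1 subunit of fast glycine receptors, held 58.1% [55.9 to 60.2] of alpha subunit UMIs for Cre- against 28.2% [26.6 to 29.7] for Tet tcKO. Glra3 held 32.6% and 54.6%, and Glra2 8.86% and 16.7%. Glra1 (94.4 kb) is shorter than Glra3 (190 kb) and Glra2 (199 kb), and the part of length was not tested here either. In RGCs Glra1 went from 58.9% to 25.2% between the libraries and Glra3 from 24.7% to 51.9%, and pooled rods and cones gave 57.5% and 27.5% for Glra1. Amacrine nuclei already had more Glra3 than Glra1 in Cre- (57.7% and 26.8%), and Tet tcKO amacrine nuclei had 64.4% and 14.8%, with overlapping intervals for Glra3. Glrb, the beta subunit that anchors glycine receptors, was at 28.6 CPM for Cre- against 52.1 CPM for Tet tcKO.

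For NMDA receptors, Grin2b (GluN2B) held 29.2% [26.3 to 32.2] of GluN2 UMIs in Cre- RGCs and 39.0% [36.6 to 41.4] in Tet tcKO RGCs, and Grin2a 65.9% and 56.3%. Grin2a and Grin2b shares of amacrine nuclei had overlapping intervals. Among the rho subunits Gabrr2 held 71.6% [69.6 to 73.5] for Cre- against 70.7% [68.6 to 72.8] for Tet tcKO over all nuclei, while Gabrr1 held 17.98% [16.4 to 19.7] and 14.2% [12.7 to 15.9], and Gabrr3 10.4% [9.14 to 11.8] and 15.1% [13.5 to 16.7]. The intervals overlapped for Gabrr2 alone. The Gabrr2 share for Cre- was also close to this in amacrine nuclei (71.0%) and in pooled rods and cones (71.6%), where Gabrr2 itself was at 39.4 and 147 CPM. Rod markers were present in these same Cre- classes, with 10 of 10 detected and sums of 2544 CPM in amacrine nuclei and 1851 CPM in RGCs, against 1200 and 835 CPM in Tet tcKO. Bipolar markers (10 of 10) summed to 1593 and 745 CPM there, against 1116 and 610 CPM in Tet tcKO, and cone markers to 793 and 529 CPM, against 1984 and 1267 CPM, with 1 of the 10 at 0 in Cre- amacrine nuclei. The part of transcripts from other cells in the rho and Glra1 levels of amacrine nuclei and RGCs was not tested.

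**Figure D4:**
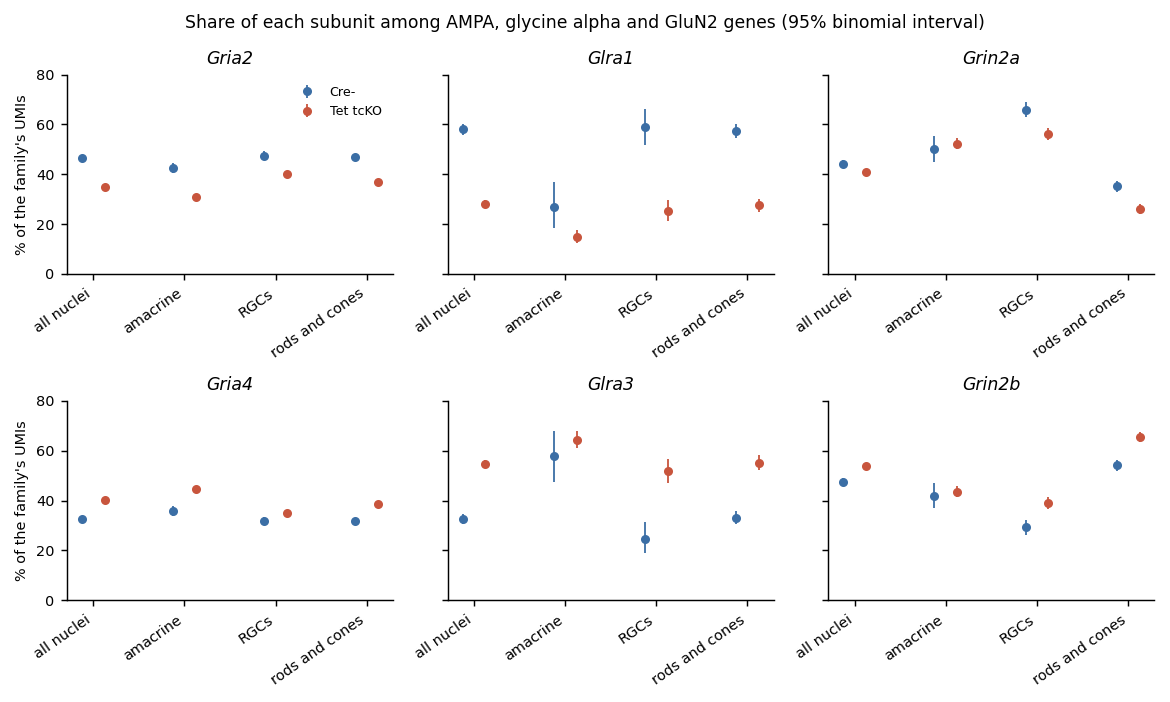
Share of 6 subunits among the UMIs of their family. The vertical axis is the percent of AMPA (Gria), glycine alpha (Glra) or GluN2 (Grin2) UMIs, the horizontal axis the population, points the libraries (blue Cre-, red Tet tcKO) and bars 95% binomial intervals. Gria2 and Glra1 were lower, and Gria4 and Glra3 higher, in Tet tcKO in all 4 populations.

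Amacrine nuclei numbered 403 in Cre- and 1043 in Tet tcKO. Different clusters held most of them, cluster 27 with 256 nuclei in Cre- and clusters 12, 24 and 23 with 357, 321 and 222 nuclei in Tet tcKO. At 10 CPM or more were 44 receptor genes, with a median log2 ratio of 0.61 where all genes had -0.01. Counting each gene once per nucleus, these were 0.31 and 0.08. At least 2-fold higher in Tet tcKO were 9 (6.44% of all genes), and 2 were at least 2-fold lower (6.44% of all genes). Htr2c was at 28.6 CPM (16 UMIs) and 141 CPM (330 UMIs). With every nucleus thinned to 500 UMIs, Htr2c was found in 1.74% [0.701 to 3.55] of Cre- and 5.94% [4.59 to 7.56] of Tet tcKO amacrine nuclei (unthinned 3.97% and 16.5%), where Müller glia had it in 0 of 144 nuclei, which allows a share of nuclei with a UMI of up to 2.08% (3 nuclei), and in 0.980% [0.0248 to 5.34] of 102 nuclei. The Cre- amacrine share lay below that limit and is not distinguished from background at this depth. Median depths were 1065 and 1736 UMIs in amacrine nuclei and 1093 and 1373 UMIs in Müller glia. Glra2 was at 23.3 and 68.7 CPM (log2 ratio 1.56 [0.75 to 2.50]), Grik4 at 59.1 and 151 CPM (1.35 [0.83 to 1.91]), Grm5 at 213.0 and 466.6 CPM (1.13 [0.86 to 1.42]) and Glra3 at 100.3 and 218 CPM (1.12 [0.72 to 1.55]). Gabrb2 was at 46.5 and 113 CPM. Gabrg1 and Gabra5 had only 3 UMIs each in Cre-, so that their ratios of 2.82 [1.23 to 5.13] and 1.39 [-0.28 to 3.74] are loosely set.

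Gabrd, the delta subunit of extrasynaptic GABA-A receptors, went the other way. Its level was 78.8 CPM [57.2 to 106] (44 UMIs) in Cre- amacrine nuclei and 10.2 CPM [6.56 to 15.2] (24 UMIs) in those of Tet tcKO (log2 ratio -2.94 [-3.72 to -2.19]). Over the alternative settings the ratio ran from -2.95 to -2.46. In starburst cluster 13, Gabrd was at 241 CPM (28 UMIs in 72 Cre- nuclei) and 27.1 CPM (7 UMIs in 122 Tet tcKO nuclei), with a log2 ratio of -3.15 [-4.59 to -1.92]. Cluster 24 had 84.2 CPM (5 UMIs) and 6.39 CPM (3 UMIs). In pooled rods and cones Gabrd was at 22.3 and 20.2 CPM (-0.14 [-0.47 to 0.19]). Gabrd lies on chromosome 4 (155469407 to 155482872, - strand, GRCm39), apart from the other GABA-A genes. Grin2c was lower too, at 35.8 CPM (20 UMIs) and 9.82 CPM (23 UMIs) in amacrine nuclei.

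RGC nuclei numbered 567 in Cre-, of which 394 in cluster 8, and 704 in Tet tcKO, mainly in clusters 31, 15 and 2 with 273, 217 and 185 nuclei. The median log2 ratio of 44 receptor genes was 0.36, and 0.02 for all genes. It was 0.15 counting each gene once per nucleus (0.07 for all genes) and 0.20 within clusters that had 20 or more nuclei of each library (0.06 for all genes). At least 2-fold higher in Tet tcKO were 5 (3.53% of all genes), and 0 were 2-fold lower (3.20% of all genes). The 5 were Htr2c (8.13 and 45.9 CPM, log2 ratio 2.50 [1.56 to 3.60]), Gabrg1 (18.7 and 52.5 CPM, 1.49 [0.83 to 2.21]), Glra3 (38.2 and 101 CPM, 1.41 [0.95 to 1.89]), and, from 7 Cre- UMIs each, Htr1b (1.26 [0.03 to 2.69]) and Htr2a (1.15 [-0.08 to 2.60]). Glra1 was lower at 91.0 and 49.2 CPM (-0.89 [-1.29 to -0.49]), and Grin2a was at -0.27 [-0.42 to -0.12].

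Pooled rods and cones had 42 receptor genes at 10 CPM, with a median of 0.41, and 0.23 for all genes, which TMM scaling moved to 0.21 and 0.04. Counting each gene once per nucleus, the receptor genes had 0.09 and all genes 0.20, so that the order turned. At least 2-fold higher in Tet tcKO were 5 (6.67% of all genes), among them Htr2c, Gabra5, Gabrg1 and Glrb, and 1 was 2-fold lower (2.58% of all genes), Glra1. Glra1 was at 93.6 and 41.3 CPM (-1.18 [-1.38 to -0.98]). Amacrine markers (10 of 10 detected) summed to 976 CPM in Cre- rods and 1363 CPM in Tet tcKO cones. The pool held mostly annotated rods in Cre- and annotated cones in Tet tcKO, and the part of that difference, or of amacrine transcripts, in these ratios was not tested.

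Clusters that hold nuclei of both libraries allow a closer comparison. There were 9 with at least 20 nuclei of each, namely amacrine clusters 13, 23, 24 and 27, RGC clusters 2, 8 and 31, horizontal cluster 18 and Müller cluster 30. The median log2 ratio of the receptor genes with a ratio at 10 CPM was above that of all genes in 7 of the 9. It was farthest above in amacrine clusters 23 (0.29, and -0.35 for all genes) and 13 (0.49, and 0.03 for all genes), nearly level in RGC cluster 2 (0.07 and 0.06), and below in RGC cluster 8 (0.06 and 0.24) and Müller cluster 30 (-0.04 and 0.10). Of 29 receptor genes with a ratio in 8 or 9 of the clusters, 20 were above 0 in most of theirs, 8 were below 0 in most and 1 was above 0 as often as below.

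The genes went different ways within the clusters. Gria4 was higher in Tet tcKO in 9 of 9, with log2 ratios from 0.01 to 0.64, and the interval lay above 0 in 3. Grm5, which signals through phospholipase C, was higher in 8 of 9, with the interval above 0 in 5. Grm8 was higher in 8 of 9, with the interval above 0 in 3. Glra3 was higher in 8 of the 8 clusters with a ratio, from 0.03 to 2.45, but the interval lay above 0 in 1. Other genes had a ratio above 0 over all nuclei but were lower in most of the shared clusters. Gabra3, at 0.97 over all nuclei, was above 0 in 1 of 8 (from -1.14 to 1.03), with 1 interval above and 0 below 0. Gabrb1 was above 0 in 3 of 9, with 1 interval above and 1 below 0, and Gabrg3 in 2 of 9, with 1 interval above and 2 below 0. Grm7 was above 0 in 4 of 9, with 2 intervals above 0, and Htr1f, a serotonin receptor, in 2 of 7, with 1 interval above 0. Counting each gene once per nucleus, Gria4 turned to -0.05 over all nuclei. Htr2c had a ratio in 5 of these clusters. All 5 were above 0, from 0.50 to 2.00, but each interval included 0, since Cre- counts were between 1 and 9 UMIs.

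Single clusters added detail to the class values. In starburst cluster 13 (72 and 122 nuclei), Grm8 was at 1196 and 2941 CPM (log2 ratio 1.30 [1.04 to 1.57]), Gabrb1 at 395.8 and 1115.9 CPM (1.495 [1.04 to 1.98]) and Gria3 at 490 and 969 CPM (0.98 [0.56 to 1.42]). Grik4 had 1 UMI in Cre- and 28 in Tet tcKO there. Gria2 was nearly level in that cluster, at 1549 and 1631 CPM. Horizontal cluster 18 (90 and 37 nuclei) had Grik4, a high-affinity kainate subunit, at 69.5 CPM (11 UMIs) and 261 CPM (29 UMIs), a log2 ratio of 1.91 [0.87 to 3.06], and Grm5 at 107 and 342 CPM (1.67 [0.81 to 2.59]). Müller cluster 30 (43 and 46 nuclei) had Grin2b at 161 CPM (7 UMIs) and 459 CPM (31 UMIs), with 1.51 [0.30 to 2.94]. Endothelial and pericyte markers were highest in annotated Müller glia, with sums of 900.1 CPM for Cre- against 542.8 CPM for Tet tcKO.

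**Figure D5:**
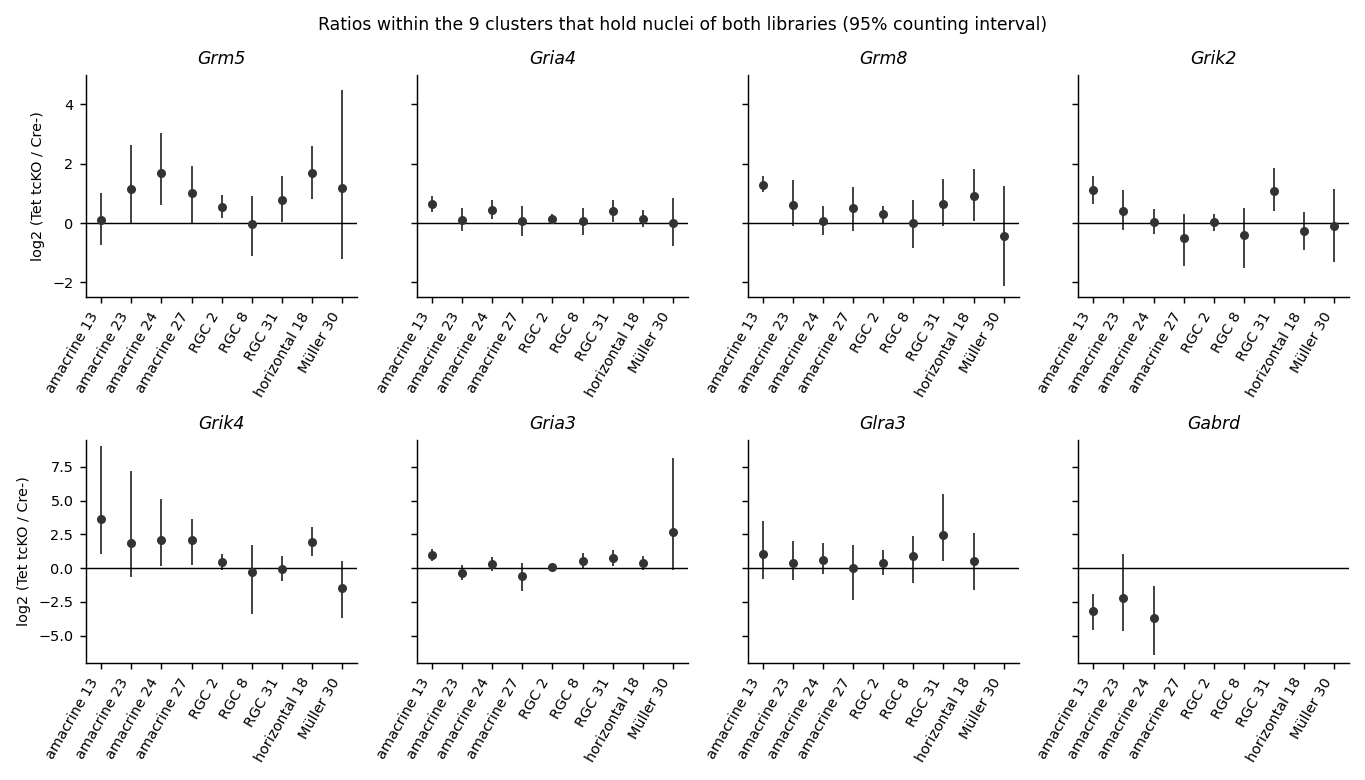
Log2 ratio of 8 receptor genes within the 9 clusters with at least 20 nuclei of each library. The horizontal axis names the clusters, the vertical axis is log2 of Tet tcKO over Cre- (different scales in the upper and lower rows), and bars are 95% counting intervals; clusters without a ratio or a closed interval have no point. Gria4 lay at or above 0 in all 9, and Gabrd lay below 0 in the 3 amacrine clusters shown.

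Other genes of transmitter signalling were listed by role. Of 59 vesicular transporters, synthetic and uptake genes, auxiliary subunits, scaffolds and chloride transporters, 56 reached 10 CPM over all nuclei. Their median log2 ratio was 0.24, with 41 above 0, where all genes had 0.15 and 64.1% above 0. At least 2-fold higher in Tet tcKO was 1, Gad2, which makes GABA (20.1 and 47.1 CPM, 1.23 [1.02 to 1.45]), where 3.18% of all genes were, and at least 2-fold lower was 1, where 2.48% of all genes were, Dlg4, the PSD-95 scaffold (630.5 and 309.8 CPM, -1.03 [-1.08 to -0.97]). The metabotropic GABA receptor genes Gabbr1 and Gabbr2 were at -0.03 and 0.06. Slc32a1, the vesicular transporter of GABA and glycine, was at 0.82, and Gphn, the gephyrin scaffold under glycine and GABA-A receptors, at 0.03 [-0.02 to 0.07]. Cbln2, a partner of delta receptors, stood at 0.81, and Dlg2 at 0.69.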

How the data were processed

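Per the labels, whole-retina nuclei were captured with PIPseq T20 3’ Single Cell RNA Kit version 4.0, processed with pipseeker 3.3.0 and aligned to GRCm 39. The authors removed ambient RNA with CellBender, filtered nuclei in Monocle3 and deposited UMI counts per gene and nucleus, which were used as deposited. Cell type and cluster names are the authors' annotation, and the mitochondrial percent of each nucleus is also the authors' value (medians 9.52% and 5.38%). The deposited mean signal of each gene and genotype was made by the authors from scaled counts and was not used. The number of nuclei with each gene in the deposited gene table equalled that in the count matrices for 8909 of 32227 genes and was higher for 23318 (59 of the 63 members, by a median of 13.2% over all members), so the table and the matrices may not hold the same nuclei or counts, and the cause was not tested. Whether doublets were removed is not stated in the methods used, and no caller was run.

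Counts were summed over the nuclei of a class or cluster in each library (Cre- 11510585 UMIs, Tet tcKO 16590747 UMIs). Shares of UMIs and of nuclei have Clopper-Pearson intervals, levels Poisson intervals and ratios exact conditional intervals, all at 95%. The 1 library per genotype allowed no test. A gene entered a comparison at 10 CPM in either library, a ratio with 3 or fewer counts on both sides was not given, and where 1 side had no count, 3 counts over the class stood in for it. Where no nucleus of a class had a UMI of a gene, the limit given is 3 nuclei of the total. The members and the lists of markers and other transmitter genes were chosen with earlier results of these data known. Genes were named if 2-fold apart, among the 2 with most UMIs of a family, among the 3 leading members of a class, or of textbook retinal function, and other names were added with values seen. Values of 5 members are not reported here singly, although counts and medians over the members include them. Loci came from GENCODE vM39 for 63 of 63 members. Promoters came from RefSeq (44 of 63 members matched). TMM scaling used edgeR 4.0.16 in R 4.3.3, and other steps Python 3.11.15 with scipy 1.17.1. Intervals were tested on simulated data.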

Additional observations from a re-analysis of the deposited data

How the results depend on the processing

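No paired analysis was possible because each genotype had 1 library, and no replicate could be left out. Of 88 summary values under an alternative, 75 moved by less than their criterion and no median changed sign. Over all nuclei the number of receptor genes 2-fold apart (9) was 5 with TMM factors, 5 with median-of-ratios factors and 5 counting each gene once per nucleus. Their median log2 ratio (0.60) was 0.49 with TMM factors, 0.49 with median-of-ratios factors, 0.40 at 1 CPM or more, 0.28 counting each gene once per nucleus, and 0.37 with Cre- class shares in both libraries. In RGCs the number (5) was 9 at 1 CPM or more, 3 at 30 CPM or more and 9 with nuclei thinned to 500 UMIs. In pooled rods and cones the number (6) was 11 at 1 CPM or more, and the median (0.41) was 0.0913 counting each gene once per nucleus, below the 0.20 of all genes in that setting. The CPM filters change how many genes are tested, and for the other settings the cause was not tested. The median of all genes over all nuclei was 0.15, and 0.04 with TMM factors. In that scaling 271 genes were 2-fold higher and 361 lower, where CPM gave 355 and 277. In pooled rods and cones TMM factors gave 430 and 464, where CPM gave 759 and 293, and in amacrine nuclei 905 and 555, where CPM gave 697 and 698.

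Htr2c stayed past 2-fold in all 4 populations under every setting that kept it above the filter, as did Gabrg1 and Grin2c over all nuclei, Gabrd, Grin2c, Gabrb2, Grik4, Glra2, Gabrg1 and Gabra5 in amacrine nuclei, Glra3 in RGCs, and Gabra5 in pooled rods and cones. The other 2-fold ratios of receptor genes named in the text for these 4 populations fell short of it under at least 1 setting. Ratios within single clusters and those of other transmitter genes were not recomputed. Of 1648 single gene values, 79 changed sign, all of genes within 2-fold. Leaving out the 5% of nuclei with most UMIs, or rod clusters with more leading markers of another class, was chosen after seeing the data. Rod clusters with no marker of any class among their leading genes were kept. One library per genotype, of pooled retinas, leaves animal, dissociation and library differences confounded with genotype, and Gabrg1 and Gabra5 in amacrine nuclei rest on 3 Cre- UMIs each.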
